A study of Homo sapiens with 6 samples.

Results

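The genes described here encode the SR proteins and hnRNPs, 2 groups of RNA-binding proteins that decide which exons of a transcript are joined. The members were chosen by name and biotype alone, as protein-coding genes called SRSF with a number, genes whose name begins with HNRNP, and TRA2A, TRA2B, PTBP1, PTBP2, PTBP3, PCBP1 and PCBP2. That gave 46 of the 58735 genes in the deposited table: 12 SR proteins, 2 TRA2 genes, 27 hnRNPs, 3 PTBP genes and 2 PCBP genes. Their mRNA levels come from RNA sequencing of SKM-1, a human line of acute myeloid leukaemia, exposed for 48 h to celastrol (3 libraries) or for 48 h to its solvent DMSO (3 libraries). Celastrol is a plant triterpenoid from Tripterygium wilfordii, used here at a dose that the labels do not state. The treatment protocol of the DMSO samples also names celastrol, so the groups rest on the sample titles and the treatment tags. All libraries come from 1 cell line, and nothing says that the 3 of a group came from separate cultures, so p-values reflect only how far these libraries spread, and that spread may be technical.

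SR proteins carry RNA recognition motifs and a tail rich in arginine and serine, bind exonic enhancers and help U1 and U2 particles find splice sites. Many hnRNPs bind intronic or exonic silencers and oppose them, so that the balance of both groups sets the inclusion of alternative exons. Both groups are known to hold their own levels in check by splicing their transcripts into forms with a premature stop codon, which nonsense-mediated decay removes. Mutations of SRSF2 and of other splicing factors recur in myelodysplastic syndromes and myeloid leukaemia.

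Values are FPKM (fragments per kilobase of exon, scaled by a total for the library), and 15231742 to 16231066 reads per celastrol library and 13549187 to 15410904 per DMSO library stood behind them. Reads of the mitochondrial chromosome made up 1.37 to 1.85% of celastrol libraries and 5.44 to 5.65% of DMSO libraries. Of 10 haematopoietic and myeloid markers in the file 6 averaged at least 1 FPKM, among them PTPRC and SPI1, while MPO reached at most 0.0337 FPKM and CD34 was listed at 0. This list summed to 43.6 to 48.3 FPKM under celastrol and 44.4 to 50.7 under DMSO, but its members moved both ways. KIT had 1.16, 1.02 and 0.983 FPKM under celastrol and 5.12, 5.47 and 5.25 under DMSO. RUNX1, ITGAM and ANPEP were also lower in every celastrol library. PTPRC was higher in each, at 14.6, 15.9 and 14.0 FPKM under celastrol and 11.1, 13.8 and 13.1 under DMSO. CD14 was also higher, at 0.269 to 0.441 FPKM under celastrol and 0.0737 to 0.1575 under DMSO. The erythroid and megakaryocytic markers, with 6 of 7 at 1 FPKM or more and PF4 listed at 0, summed to 336 to 389 FPKM under celastrol and 458 to 493 under DMSO. Epithelial, stromal and endothelial markers, with 4 of 8 at 1 FPKM or more and CDH5 at 0, summed to 192 to 227 FPKM under celastrol, against 155 to 168 under DMSO, and lymphoid markers, with 3 of 6 and MS4A1 at 0, to 15.4 to 15.9 under celastrol, against 8.42 to 10.4 under DMSO. The epithelial sum was carried by KRT8 and KRT18, while EPCAM had 16.4, 15.0 and 15.3 FPKM under celastrol and 30.3, 33.9 and 32.0 under DMSO. The part of these shifts in the results below was not tested, and fewer cells of a type cannot be told apart from less RNA per cell.

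Of the 46 genes, 39 averaged at least 1 FPKM over the 6 libraries and were tested with limma-trend on log2(FPKM + 0.1), together with every other such gene. In 1 member expression rose under celastrol and in 12 it fell at a Benjamini-Hochberg adjusted p under 0.05, which is 2.56% and 30.8% of the tested members. Over all 12685 genes tested the shares were 15.3% higher and 14.2% lower. The members that fell included the most abundant one, HNRNPA1, the poly(C)-binding genes PCBP1 and PCBP2, HNRNPF, and 2 SR genes, SRSF5 and SRSF6, and the one that rose was HNRNPAB. The shifts were small: log2 fold changes ran from -0.70 for PCBP2 to 0.30 for HNRNPAB, with a median of -0.06, against 0.02 over all genes tested. Celastrol libraries lay wholly below DMSO libraries for 17 members (43.6%, against 22.0% of all genes tested) and wholly above them for 8 (20.5%, against 25.3%).

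These counts depend on the scale. Rescaling to TPM put the median over all tested genes at 0.26 (log2 fold change) and gave 17 members higher and 4 lower, against 41.5% of all genes higher and 6.43% lower. Scaling to the reads listed in the file moved that median to 0.12 and gave 8 members higher and 7 lower, against 23.8% and 10.2%. Relative to the median of all genes the members stood alike in each case: 24 of 39 lay below it and their own median was 0.08 lower on the log2 scale. Both rescalings multiply all genes of a library by the same factor, so this position could hardly change and is no separate result. Under every alternative tried PCBP2, HNRNPA1, SRSF6 and HNRNPF were lower and HNRNPAB was higher past the threshold, and the calls of the other 8 members were each lost under at least 2. Without celastrol replicate 1, 7 members (17.9%) were lower, against 11.3% of all genes. Without celastrol replicate 2, 5 (12.8%) were, against 8.9% of all genes, and without DMSO replicate 3, 5 (12.8%), against 7.78%. In these settings the share of members called lower stood nearer to that of all genes than with every library. The members' median relative to all genes was -0.061, -0.108 and -0.081 in these settings in turn, against -0.082 with every library. Without celastrol replicate 3, 8 members and 1284 of all 12685 genes were lower. Without DMSO replicate 1 or 2, 12 members were lower each time, with 1613 and 1767 of all genes.

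**Figure D1:**
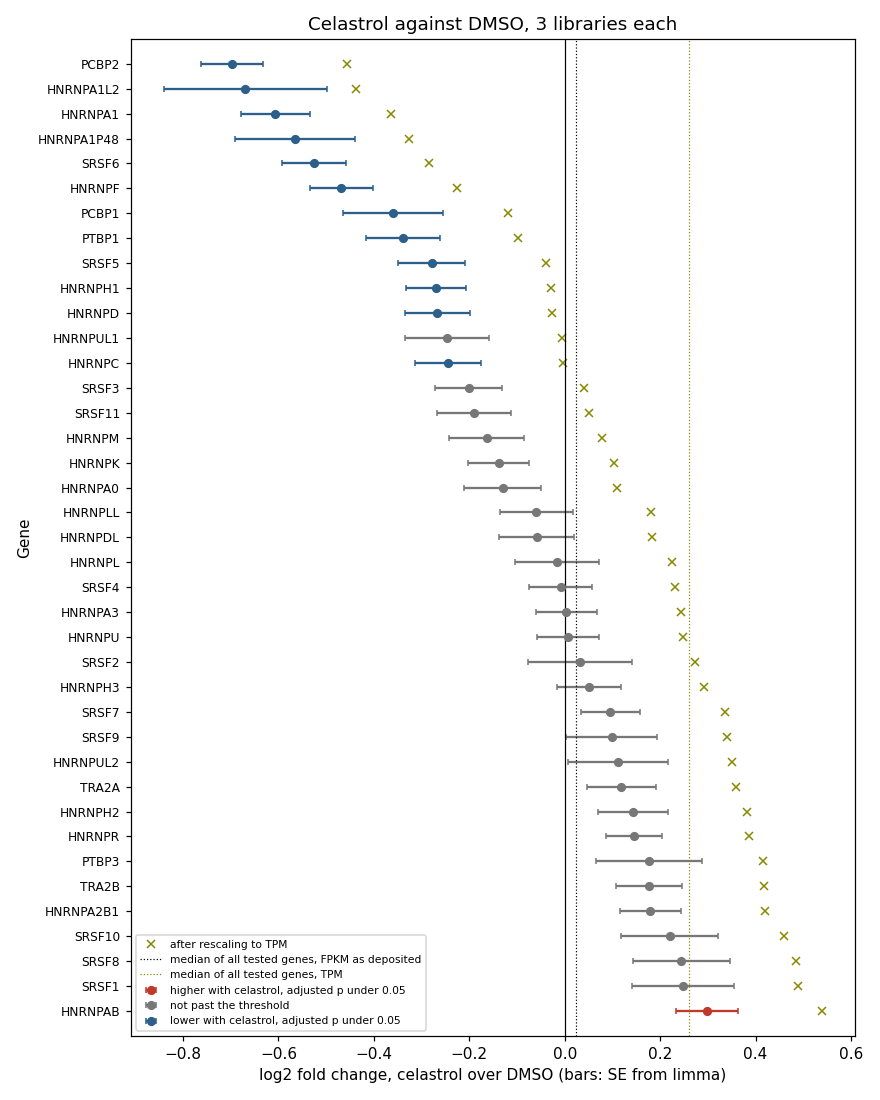
Log2 fold change, celastrol over DMSO, of the 39 tested members with SE from limma (3 libraries a group), coloured by call on the deposited FPKM, with crosses for the values after rescaling to TPM and dotted lines for the median of all tested genes on each scale. TPM moves all of them to the right, and on deposited FPKM the values run from -0.70 for PCBP2 to 0.30 for HNRNPAB.

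Levels spanned a wide range. HNRNPA1 was highest, at 311 ± 20.7 FPKM under celastrol and 473 ± 10.1 under DMSO (SD, n = 3 each). By the mean over all 6 libraries next came PCBP1, HNRNPF, HNRNPK and HNRNPAB, which averaged from 113 to 156 FPKM under celastrol and from 92.1 to 201 under DMSO. Under celastrol the libraries of PCBP1 lay above those of HNRNPF and HNRNPF above HNRNPK, while HNRNPK and HNRNPAB overlapped. Under DMSO HNRNPC and PTBP1 averaged 100.01 and 95.2 FPKM, above HNRNPAB. The most abundant SR genes, SRSF3 and SRSF2, averaged 50.5 and 49.6 FPKM under celastrol and 58.0 and 48.6 under DMSO. All 46 members together summed to 2075, 2025 and 1976 FPKM in celastrol replicates 1 to 3 and to 2366, 2308 and 2403 FPKM in DMSO replicates 1 to 3. As a share of all FPKM in a library they held 0.813, 0.817 and 0.758% under celastrol and 0.771, 0.785 and 0.796% under DMSO, so the groups overlapped on that scale. The gene length behind each FPKM counts every annotated exon, including retained introns. It was a median of 1.62 times the longest protein-coding transcript for tested members and 1.36 times for all tested protein-coding genes, so levels of genes such as TRA2B (3.99 times) and SRSF4 (3.73 times) are understated relative to compact ones such as PCBP1 (1 time).

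**Figure D2:**
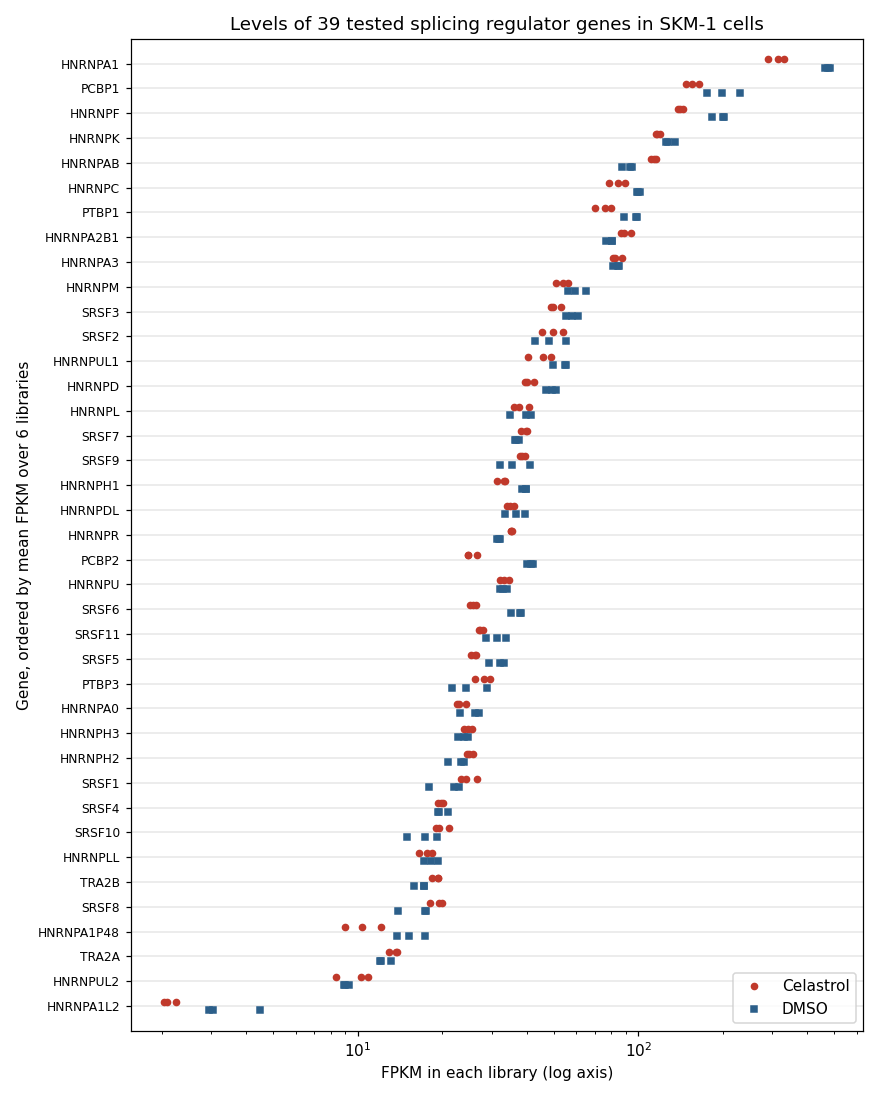
FPKM of the 39 tested members in each library on a log axis, celastrol above DMSO in each row and genes ordered by their mean. HNRNPA1 stands apart at the top, at 289 to 329.9 FPKM under celastrol and 463 to 483 under DMSO, and HNRNPA1L2 is lowest, at 2.04 to 2.24 FPKM under celastrol and 2.94 to 4.49 under DMSO.

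Of 11 tested SR genes 2 fell (18.2%, near the 14.2% of all genes) and the other 9 did not pass. SRSF6 (chromosome 20, 43457928 to 43464247), a member of the subgroup with SRSF4 and SRSF5 that carries a pair of RNA recognition motifs and a long arginine-serine tail, had 25.7, 25.0 and 26.3 FPKM in celastrol replicates 1 to 3 and 35.0, 37.9 and 38.2 in DMSO replicates 1 to 3. Every celastrol library lay below every DMSO library, by 1.44-fold on average (log2 fold change -0.53, SE 0.07, adjusted p = 0.00167). SRSF5 (chromosome 14, 69726900 to 69772005), its relative, had 25.3, 26.4 and 26.2 FPKM under celastrol and 29.4, 33.1 and 32.2 under DMSO. That was 1.22-fold lower (log2 fold change -0.28, SE 0.07, adjusted p = 0.0225), a call lost under TPM (log2 fold change -0.04), on the scale of listed reads, with limma-voom, without each celastrol library in turn and without DMSO replicate 3 (leave-one-out adjusted p at most 0.0948). SRSF4, the third of the subgroup, had 19.8, 20.1 and 19.3 FPKM under celastrol and 20.9, 19.4 and 19.4 under DMSO, and the groups overlapped (log2 fold change -0.01, adjusted p = 0.929).

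SRSF6 has 2 transcripts in GENCODE release 29, of which 1 is coding and 1 is marked for nonsense-mediated decay. The second of these holds an exon of 268 bases that the coding one skips. Its bases up to the premature stop are printed here because this exon is the kind of element through which SR genes are known to limit their own mRNA. The reading is 5′ to 3′ from GENCODE's transcript sequences (GRCh38, plus strand, chr20:43459153-43459304), and the capitals mark the stop codon.
SRSF6 exon, 152 of 268 bases: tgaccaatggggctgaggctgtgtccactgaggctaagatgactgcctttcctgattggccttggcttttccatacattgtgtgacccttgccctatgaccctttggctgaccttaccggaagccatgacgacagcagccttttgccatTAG
The deposited value of SRSF6 sums reads of both transcripts, so the share of this exon could not be measured. In the same annotation 11 of 11 tested SR genes (100%) have a transcript marked for nonsense-mediated decay, as do 13 of 22 tested hnRNPs (59.1%) and 44.8% of 10072 tested protein-coding genes. For SRSF7 there are 6 such transcripts and for HNRNPU there are 9.

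Among SR genes with the lower fold changes that missed the threshold was SRSF3, the smallest SR protein, which also takes part in mRNA export. It had 49.6, 48.6 and 53.2 FPKM in celastrol replicates 1 to 3 and 55.4, 60.8 and 57.9 in DMSO replicates 1 to 3 (log2 fold change -0.20, adjusted p = 0.0659), without overlap. SRSF7, its close relative, which binds RNA with the help of a zinc knuckle, had 39.7, 38.1 and 40.0 FPKM under celastrol and 37.6, 36.2 and 36.5 under DMSO (0.10, adjusted p = 0.279). Here the celastrol libraries were the higher ones, again without overlap, and SRSF7 passed as higher under TPM (log2 fold change 0.34). SRSF11 had 27.2, 27.9 and 26.9 FPKM under celastrol and 28.6, 33.9 and 31.4 under DMSO (-0.19, adjusted p = 0.106). The direction of SRSF3 and SRSF11 turned to 0.04 and 0.05 under TPM, while both passed as lower without DMSO replicate 1 (adjusted p = 0.0494 and 0.0336).

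SRSF1, the founding SR protein (SF2/ASF), did not pass as deposited. It had 26.6, 23.3 and 24.3 FPKM in celastrol replicates 1 to 3 and 17.9, 22.9 and 22.0 in DMSO replicates 1 to 3 (log2 fold change 0.25, SE 0.11, adjusted p = 0.121). DMSO replicate 1 was the lowest library, the groups did not overlap, and the gene passed under TPM (0.49, adjusted p = 0.0104). SRSF8, which arose as a copy of SRSF2, also had its lowest value in DMSO replicate 1 and no overlap, at 18.1, 19.9 and 19.5 FPKM under celastrol and 13.9, 17.5 and 17.3 under DMSO (0.24, adjusted p = 0.110). SRSF10, known for repressing splicing when dephosphorylated after heat shock, had 19.4, 21.2 and 19.0 FPKM under celastrol and 14.9, 19.1 and 17.3 under DMSO (0.22, adjusted p = 0.141), with overlap. SRSF8 and SRSF10 also passed as higher under TPM, at 0.48 and 0.46. SRSF1 and SRSF8 passed on the scale of listed reads and with limma-voom too. SRSF10 passed with limma-voom and without DMSO replicate 2 (adjusted p = 0.0488 in the latter).

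SRSF2 itself (SC35), which is mutated in many myelodysplastic syndromes, had 53.9, 49.6 and 45.2 FPKM under celastrol and 42.8, 55.2 and 47.9 under DMSO (log2 fold change 0.03, SE 0.11, adjusted p = 0.849). Its libraries were mixed between the groups, and 36.7% of its exonic bases are shared with MFSD11 on the other strand, so reads of these genes may not be told apart. SRSF9 had 38.5, 37.9 and 39.3 FPKM under celastrol and 41.1, 32.0 and 35.4 under DMSO (0.10, adjusted p = 0.468), and it shares 46.2% of its exonic bases with GATC. SRSF12 was listed at 0 to 0.0418 FPKM, with at most 3 reads in a library, and was not tested. The SR-like activators TRA2A and TRA2B, which bind purine-rich enhancers, had similar log2 fold changes, and TRA2B had the higher FPKM in every library. TRA2A had 12.9, 13.6 and 13.8 FPKM under celastrol and 11.95, 13.1 and 12.1 under DMSO (0.12, adjusted p = 0.251), with overlap. TRA2B had 19.3, 19.3 and 18.3 FPKM under celastrol and 15.9, 17.1 and 17.3 under DMSO (0.18, adjusted p = 0.0904), without overlap, and both passed as higher under TPM.

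HNRNPA1 (chromosome 12, 54280193 to 54287088), a repressor that binds exonic and intronic silencers, had 329.9, 315 and 289 FPKM in celastrol replicates 1 to 3, against 474, 463 and 483 in DMSO replicates 1 to 3. It fell by 1.52-fold on average (log2 fold change -0.61, SE 0.07, adjusted p = 0.00119), on 24752 to 36565 reads per library. HNRNPA2B1, HNRNPA3 and HNRNPA0, distinct genes of the hnRNP A/B family, did not pass as deposited. HNRNPA2B1 had 87.0, 93.9 and 89.0 FPKM under celastrol and 76.9, 80.6 and 80.8 under DMSO (0.18, adjusted p = 0.0709), with every celastrol library above every DMSO library. It passed as higher under TPM (0.42, adjusted p = 0.00260), on the scale of listed reads or of nuclear (non-mitochondrial) reads and with limma-voom. HNRNPA3 had 82.7, 87.5 and 81.3 FPKM under celastrol and 81.0, 84.7 and 85.2 under DMSO (0.003, adjusted p = 0.973), and HNRNPA0 averaged 23.2 ± 0.961 FPKM under celastrol, against 25.5 ± 2.10 under DMSO (SD, n = 3 each; -0.13, adjusted p = 0.264). Both overlapped between the groups.

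HNRNPA1L2 and HNRNPA1P48 are near-identical copies of HNRNPA1 that the file lists as protein-coding. The transcript of HNRNPA1L2 is identical to HNRNPA1 over 98.4% of 1350 aligned bases and that of HNRNPA1P48 over 99.2% of 1361, so reads can be exchanged between them. HNRNPA1P48 had 12.1, 9.01 and 10.3 FPKM under celastrol and 15.3, 13.8 and 17.4 under DMSO (-0.57, adjusted p = 0.0140), a call lost under TPM and without DMSO replicate 3 (leave-one-out adjusted p at most 0.0546). HNRNPA1L2 had 2.08, 2.24 and 2.04 FPKM under celastrol and 3.04, 4.49 and 2.94 under DMSO (-0.67, adjusted p = 0.0228), on 45 to 83 reads, a call lost under TPM, with no filter on low values, with limma-voom and without each celastrol library in turn (leave-one-out adjusted p at most 0.0664). Their reads came to 1.08 to 1.38% and 0.164 to 0.262% of those on HNRNPA1. With both copies left out, 10 members were lower and the median log2 fold change was -0.02.

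HNRNPF (chromosome 10, 43385617 to 43409166), which binds G-rich intronic sequence, had 143.8, 140.6 and 138.6 FPKM under celastrol and 201, 183 and 201 under DMSO. It was 1.38-fold lower, with the lowest DMSO library above the highest celastrol library (log2 fold change -0.47, SE 0.07, adjusted p = 0.00254). HNRNPH1, of the same F/H family, had 31.4, 33.5 and 33.1 FPKM under celastrol and 39.8, 39.7 and 38.5 under DMSO (-0.27, adjusted p = 0.0167). This call was lost under TPM, on the scale of listed reads, with limma-voom, and without celastrol replicate 1 or 2 or DMSO replicate 3 (leave-one-out adjusted p at most 0.0643). HNRNPH2 lay the other way, at 24.5, 24.9 and 25.7 FPKM under celastrol and 21.0, 23.2 and 23.9 under DMSO (0.14, adjusted p = 0.182). It passed as higher under TPM (0.38, adjusted p = 0.00594), on the scale of listed reads and with limma-voom. HNRNPH3 overlapped between the groups (0.05, adjusted p = 0.597).

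HNRNPAB (chromosome 5, 178204507 to 178211163) was the member that rose. Its libraries had 115.7, 110.6 and 113 FPKM under celastrol, against 93.6, 87.5 and 95.3 under DMSO, a 1.23-fold difference (log2 fold change 0.30, SE 0.06, adjusted p = 0.0126). The call held without each library in turn (leave-one-out adjusted p at most 0.0459). HNRNPD (AUF1), a relative that binds AU-rich elements and takes part in mRNA decay, had 42.5, 39.3 and 40.1 FPKM under celastrol and 50.9, 46.9 and 49.1 under DMSO (-0.27, adjusted p = 0.0222). That call was lost under TPM, on the scale of listed reads, with limma-voom, and without celastrol replicate 2 or 3 or DMSO replicate 3 (leave-one-out adjusted p at most 0.0987). HNRNPDL, the third of this family, averaged 35.0 ± 1.04 FPKM under celastrol and 36.5 ± 2.98 under DMSO (SD, n = 3 each; -0.06, adjusted p = 0.604), with overlap.

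The window around the start of HNRNPAB is shown because this was the one member that rose. It spans 120 bases before to 30 bases after the RefSeq start (GRCh38.p14, plus strand, chr5:178204413-178204562), and the capitals mark 2 CCAAT boxes and the TATA box, TATAAA.
HNRNPAB: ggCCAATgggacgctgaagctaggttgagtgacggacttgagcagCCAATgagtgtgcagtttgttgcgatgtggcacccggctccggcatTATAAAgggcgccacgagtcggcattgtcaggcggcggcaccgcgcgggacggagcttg
In the 300-base RefSeq windows, searched on both strands, TATAAA occurred in 5 of 35 tested members with an entry (14.3%) and in 4.90% of 8375 tested genes, and CCAAT in 16 (45.7%) and 37.2%. Of the 10 windows of members that fell TATAAA occurred in 2, those of HNRNPC and HNRNPD. A match is a description of letters, not of a bound site. HNRNPAB shares 9.14% of its exonic bases with PHYKPL on the other strand, and PHYKPL fell, at 3.59 ± 0.205 FPKM under celastrol and 6.19 ± 0.707 under DMSO (SD, n = 3 each; log2 fold change -0.76, adjusted p = 0.00221).

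PCBP1 and PCBP2 bind poly(C) stretches and act in splicing, mRNA stability and translation. PCBP2 (chromosome 12, 53452102 to 53481162) had the lowest log2 fold change of all tested members. Its libraries had 26.6, 24.6 and 24.8 FPKM under celastrol and 40.0, 41.5 and 42.0 under DMSO, a 1.62-fold decrease (log2 fold change -0.70, SE 0.07, adjusted p = 0.000490). PCBP1 (chromosome 2, 70087454 to 70089203), the intronless copy of PCBP2, had 164.8, 155 and 148 FPKM under celastrol and 230.5, 175 and 198 under DMSO, which was 1.29-fold lower (-0.36, SE 0.11, adjusted p = 0.0370). DMSO replicate 1 was the highest library of PCBP1 and DMSO replicate 2 lay nearest to the celastrol libraries. The call was lost under TPM, on the scale of listed reads, under quantile normalization, with no filter on low values and without each library in turn other than DMSO replicate 2 (leave-one-out adjusted p at most 0.103). The transcript of PCBP1 is identical to PCBP2 over 78.5% of 1713 aligned bases. PCBP2 shares 18.8% of its exonic bases with MAP3K12 on the other strand, and MAP3K12 rose, at 2.31 ± 0.310 FPKM under celastrol and 1.154 ± 0.0860 under DMSO (SD, n = 3 each; log2 fold change 0.94, adjusted p = 0.00640). PCBP1 shares 52.2% of its exonic bases with PCBP1-AS1, whose reads came to 4.19% of those on PCBP1.

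PCBP2 over PCBP1 was 0.1615, 0.159 and 0.167 under celastrol and 0.1735, 0.237 and 0.212 under DMSO, so PCBP2 fell further. The starts of PCBP2 and PCBP1 are set side by side because they share a stretch of sequence. A link between this stretch and the lower levels was not tested. Each line gives 120 bases before to 30 after the RefSeq start (GRCh38.p14, plus strands, chr12:53451982-53452131 and chr2:70087357-70087506). The capitals mark the ETS core, which lies on the minus strand in both, and the longest run that both windows share, CGCGGGGTTGAAAGC.
PCBP2: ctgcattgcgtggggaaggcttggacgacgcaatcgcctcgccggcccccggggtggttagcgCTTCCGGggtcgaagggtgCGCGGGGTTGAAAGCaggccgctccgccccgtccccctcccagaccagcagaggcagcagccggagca
PCBP1: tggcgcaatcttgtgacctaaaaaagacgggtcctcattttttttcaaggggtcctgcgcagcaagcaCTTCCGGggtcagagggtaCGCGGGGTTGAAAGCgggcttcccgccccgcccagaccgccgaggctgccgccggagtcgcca
From the ETS core to the end of the shared run, 31 of 34 bases are identical. The shared run of 15 bases was the longest among 595 pairs of promoters of the 35 tested members with an entry, where the median was 9 and the next longest 14. The ETS core CCGGAAG, searched on both strands of the 300-base windows, occurred in 7 of these 35 windows (20%), in 5 of the 10 windows of members that fell (PCBP1, PCBP2, HNRNPF, HNRNPD and SRSF5) and in 21.8% of 8375 tested genes. It was picked from 7 motifs after their counts were seen.

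PTBP1 (chromosome 19, 797075 to 812327), which binds pyrimidine tracts and represses neuronal exons, had 79.8, 76.0 and 70.1 FPKM under celastrol and 98.6, 88.8 and 98.2 under DMSO. It was 1.26-fold lower (log2 fold change -0.34, SE 0.08, adjusted p = 0.0155), and lost its call under TPM (-0.10) and without celastrol replicate 2 or DMSO replicate 3 (leave-one-out adjusted p at most 0.0730). PTBP3, known from haematopoietic cells, had 28.2, 29.5 and 26.1 FPKM under celastrol and 21.6, 28.8 and 24.2 under DMSO (0.18, adjusted p = 0.268), with overlap. It passed as higher under TPM (0.42, adjusted p = 0.0281), with limma-voom and without DMSO replicate 2. PTBP2, the neuronal form, which PTBP1 is known to repress by exon skipping, had 0.887, 0.973 and 1.09 FPKM under celastrol and 0.703, 1.30 and 0.962 under DMSO. Its groups overlapped, on 131 to 237 reads, and its mean was just under the minimum for the test.

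Of the remaining hnRNPs, HNRNPC, which binds uridine tracts and packages nascent transcripts, had 84.8, 78.9 and 89.8 FPKM under celastrol and 99.6, 99.1 and 101.35 under DMSO. It was 1.18-fold lower (log2 fold change -0.25, adjusted p = 0.0337), and kept its call without celastrol replicate 3 and without DMSO replicate 2 but not without the other libraries (leave-one-out adjusted p at most 0.140). It was also lost under TPM, on the scale of listed reads, with limma-voom, with no filter on low values and with the replicate block (adjusted p = 0.0504). HNRNPUL1 (-0.25, adjusted p = 0.0717), HNRNPM (-0.16, adjusted p = 0.151) and HNRNPK (-0.14, adjusted p = 0.135) lay lower in every celastrol library without passing. With protein-coding genes alone HNRNPUL1 passed as lower (adjusted p = 0.0435). Under TPM HNRNPM and HNRNPK turned to 0.08 and 0.10. HNRNPR lay higher in every celastrol library, at 35.2 ± 0.151 FPKM under celastrol and 31.8 ± 0.394 under DMSO (SD, n = 3 each; 0.14, adjusted p = 0.104). It passed as higher under TPM (0.39, adjusted p = 0.00209), on the scale of listed reads or of nuclear reads and with limma-voom. HNRNPL, HNRNPLL, HNRNPU and HNRNPUL2 overlapped between the groups, with log2 fold changes of -0.02, -0.06, 0.01 and 0.11. The readthrough gene HNRNPUL2-BSCL2 had at most 2 reads in a library, and HNRNPCL1, HNRNPCL2, HNRNPCL3 and HNRNPCL4 were listed at 0 in all libraries.

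A ratio of 2 members within a library does not depend on how the libraries are scaled. Of 21 ratios between relatives, chosen with the values known, 12 were lower in every celastrol library than in any DMSO library, 4 were higher and 5 overlapped. Which way a ratio went depends on the gene put on top, and several genes recur across pairs. Ratios of other genes were not computed, so these counts have no share to be read against. Of single genes tested, 22.0% lay wholly below under celastrol and 25.3% wholly above. With 3 libraries against 3 an exact two-sided permutation test cannot give a p below 0.1, so the ratios are given as values. HNRNPA1 over HNRNPA2B1 was 3.79, 3.35 and 3.25 in celastrol replicates 1 to 3 and 6.16, 5.74 and 5.98 in DMSO replicates 1 to 3. HNRNPF over HNRNPH2 was 5.88, 5.64 and 5.39 under celastrol and 9.57, 7.90 and 8.42 under DMSO. HNRNPAB over HNRNPD was 2.72, 2.82 and 2.82 under celastrol and 1.84, 1.87 and 1.94 under DMSO. In each of these 3 ratios the groups lay apart.

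Among SR genes SRSF1 over SRSF6 was 1.03, 0.931 and 0.924 under celastrol and 0.511, 0.605 and 0.574 under DMSO. The pair was near parity under celastrol, while SRSF6 was the more abundant under DMSO. SRSF6 over SRSF4 averaged 1.30 ± 0.0599 under celastrol and 1.87 ± 0.166 under DMSO, and SRSF3 over SRSF7 1.28 ± 0.0418 under celastrol and 1.58 ± 0.104 under DMSO (SD, n = 3 each). PTBP1 over PTBP3 averaged 2.70 ± 0.130 under celastrol and 3.90 ± 0.755 under DMSO, and PCBP2 over HNRNPK 0.216 ± 0.00538 under celastrol and 0.319 ± 0.00737 under DMSO. Ratios that overlapped were TRA2A over TRA2B, HNRNPL over HNRNPLL, SRSF8 over SRSF2, SRSF1 over SRSF9 and HNRNPD over HNRNPDL.

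**Figure D3:**
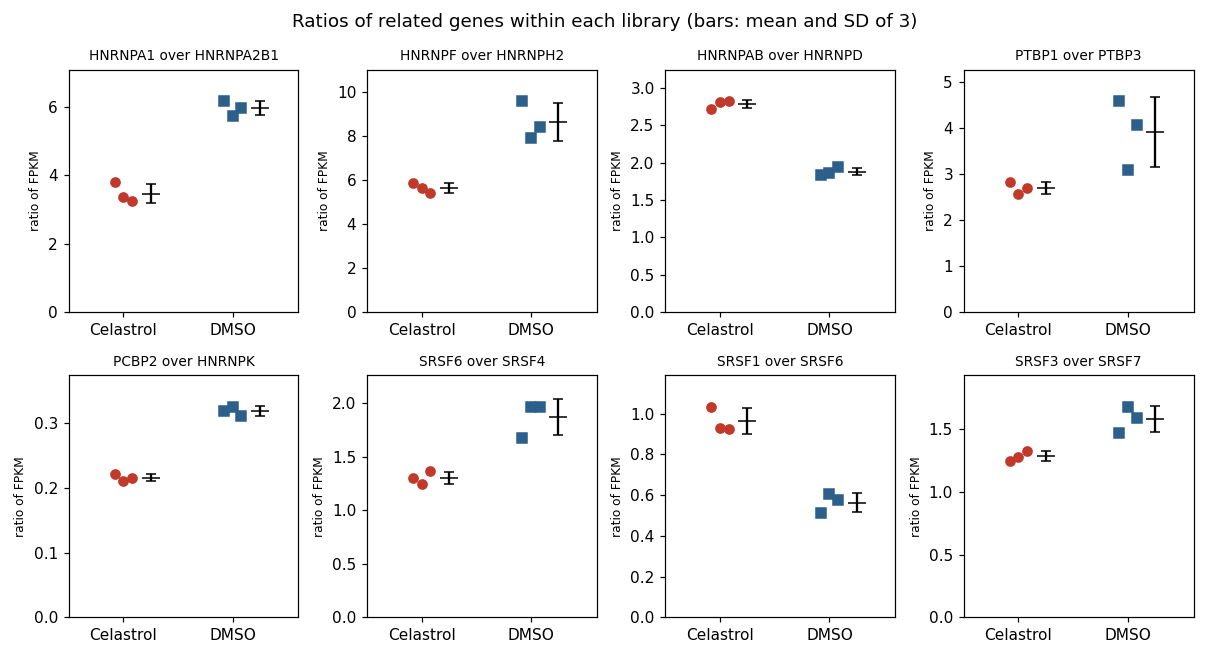
Ratio of FPKM of 8 pairs of related members in each library, celastrol left of DMSO in each panel and bars for the mean and SD of 3 libraries. All 8 pairs shown are among the ratios without overlap between the groups, and none of the ratios that overlapped is drawn. HNRNPA1 over HNRNPA2B1, for example, was 3.25 to 3.79 under celastrol and 5.74 to 6.16 under DMSO.

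Other genes of the splicing pathway were read from the same test in 6 lists. Of 17 kinases, phosphatase subunits and import factors that act on SR proteins 1 passed, as lower, against 15.3% higher and 14.2% lower over all genes. The median log2 fold change of the list was -0.06, against 0.02 over all genes. The lower one was PPP1CC, a catalytic subunit of protein phosphatase 1, at 46.8 ± 1.90 FPKM under celastrol and 63.4 ± 5.80 under DMSO (SD, n = 3 each; -0.44, adjusted p = 0.00815), a call lost under TPM. The SRPK and CLK kinases, which phosphorylate arginine-serine tails, did not pass. Of 30 tested proteins with arginine-serine domains outside the SRSF genes 5 were higher and 4 lower (median -0.04), near the 15.3% and 14.2% of all genes. Under TPM 13 were higher and 2 lower (median 0.19), against 41.5% and 6.43% of all genes (median 0.26). Without celastrol replicate 2 the 5 higher calls were lost, while those over all genes went from 1947 to 1128. Without celastrol replicate 1 or 3 or DMSO replicate 3 the list had 1 higher call each time. Over all genes there were 1429, 1228 and 1125 in these settings in turn. LUC7L, a U1-associated factor, fell by 0.57 on the log2 scale to 5.97 ± 0.0634 FPKM under celastrol, against 8.90 ± 0.244 under DMSO, and PNN, pinin, fell by 0.47. ARGLU1 fell by 0.41, a call lost under TPM, and SCAF1 rose by 0.47, a call lost with no filter on low values and without each celastrol library in turn and without DMSO replicate 3.

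Of 44 tested further RNA-binding regulators 1 was higher and 12 were lower, with a median of -0.18, against 15.3% higher and 14.2% lower over all genes. Under TPM 13 were higher and 4 lower, with a median of 0.06. Over all genes the TPM shares were 41.5% higher and 6.43% lower, with a median of 0.26. RBM3, a cold-inducible RNA-binding protein, fell to 38.2 ± 1.48 FPKM under celastrol, against 63.1 ± 6.40 under DMSO (SD, n = 3 each; log2 fold change -0.72, adjusted p = 0.00126). NONO, a paraspeckle protein, fell to 69.8 ± 4.79 FPKM under celastrol, against 110.7 ± 4.96 under DMSO (-0.67, adjusted p = 0.0010), and RBMX, also called hnRNP G, to 63.1 ± 4.63 FPKM under celastrol, against 95.9 ± 7.35 under DMSO (-0.60, adjusted p = 0.00259). The muscleblind genes, which regulate alternative exons, parted: MBNL2 fell by 0.57 on the log2 scale and MBNL1, named after its value was seen, rose by 0.45. RBM3, NONO, RBMX, MBNL1 and MBNL2 kept their calls under every alternative tried.

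The core of the spliceosome was mixed. Of 23 tested U1, U2 and Sm proteins 1 was higher and 4 were lower (median -0.07), against 15.3% and 14.2% of all genes. Under TPM 9 were higher and 1 lower (median 0.17), against 41.5% and 6.43% of all genes (median 0.26). With limma-voom it was 8 and 4, against 3650 and 1465 of all 12685 genes. SNRPA, a protein of the U1 particle, fell to 34.6 ± 3.12 FPKM under celastrol, against 56.9 ± 6.37 under DMSO (SD, n = 3 each; -0.71, adjusted p = 0.00261), while SNRPA1, of the U2 particle, rose by 0.37 on the log2 scale. SF1, the branch point binding protein, fell by 0.39 and SF3A2 by 0.46, calls lost under TPM, and that of SF3A2 also with no filter on low values and without celastrol replicate 2 or 3 or DMSO replicate 3. Of 35 tested tri-snRNP, LSm and Prp19 proteins 4 were higher and 6 lower (median -0.02), shares near those of all genes. Under TPM 19 passed, each as higher (median 0.22), against 41.5% higher and 6.43% lower over all genes. On the scale of listed reads 10 were higher and 2 lower, against 23.8% and 10.2% of all genes. SNRNP27 and LSM3 rose by 0.61 and 0.59, and LSM2 and LSM8 fell by 0.42 and 0.41. The calls of LSM2 and LSM8 were lost under TPM, and that of LSM8 also on the scale of listed reads, with no filter on low values and when any of 4 of the 6 libraries was left out. Of 18 tested exon junction and nonsense-mediated decay factors 1 was higher and 3 were lower (median 0.02), and under TPM 8 and 1 (median 0.26). Over all genes 15.3% were higher and 14.2% lower (median 0.02), and under TPM 41.5% and 6.43% (median 0.26). NBAS fell by 0.66 and SMG8, a regulator of the SMG1 kinase, rose by 0.47. CASC3 and SMG9 fell by 0.30 and 0.35, calls lost under TPM and without DMSO replicate 3. That of SMG9 was also lost on the scale of listed reads, with no filter on low values and without each celastrol library in turn.

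**Figure D4:**
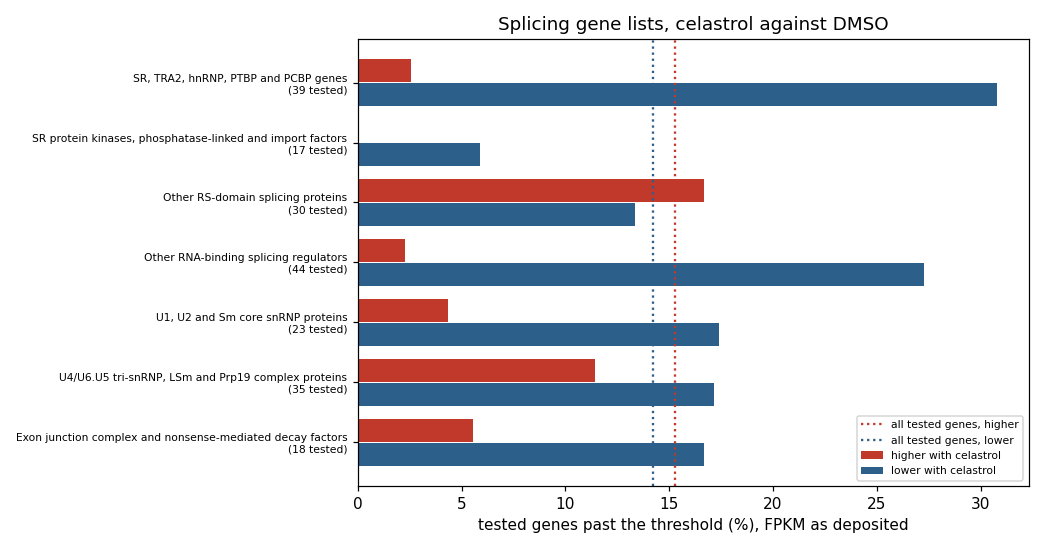
Share of tested genes past the threshold, higher or lower under celastrol, for the SR, TRA2, hnRNP, PTBP and PCBP genes and for 6 further lists of splicing genes, with dotted lines for all tested genes (15.3% higher and 14.2% lower). The bars are on deposited FPKM, and rescaling to TPM gave 64 higher and 8 lower calls over the 6 further lists, against 12 and 30 as deposited. Under TPM 41.5% of all tested genes were higher and 6.43% lower.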

How the data were processed

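RNA of SKM-1 cells was sequenced in 6 libraries. The submitters' processing notes list HISAT2 (2.0.5), featureCounts (1.5.0-p3) and GRCh38, with no settings or strand. The authors deposited FPKM per gene and library, and all 58735 identifiers and positions matched GENCODE release 29. Multiplied by gene length and divided by the value of 1 read, 100% of deposited values above 0 came out whole to within 0.001, which gave the reads. The total used was 1.04 to 1.05 times the listed reads under celastrol and 0.963 to 0.994 times under DMSO, so deposited values lower celastrol relative to listed reads.

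Tests used limma 3.58.1 in R 4.3.3, as limma-trend on log2(FPKM + 0.1), two-sided, for genes with a mean of at least 1 FPKM, with Benjamini-Hochberg adjustment over all 12685 genes and a threshold of 0.05. Fold changes of means are of FPKM itself. The steps were checked on simulated counts. Promoter windows are from RefSeq, the first listed start per gene; 35 of 39 tested members had one.

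Replicates differed by more than sampling noise (chi-square per gene 4.01 to 13.4 within groups, 49.3 to 77.7 across). The members and lists were chosen with earlier results of these data known. Every member is named; calls and all expressed SR, TRA2, PTBP and PCBP genes get values per library, and each list up to 4 called genes by size. Alternatives were other pseudocounts, filters, scalings, limma-voom on recovered reads, protein-coding genes alone, the replicate block and leaving out each library.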

Additional observations from a re-analysis of the deposited data

How the results depend on the processing

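The scale decided most counts. Under TPM 5269 genes were higher and 816 lower, of the members 17 and 4 and of the 6 pathway lists 64 and 8. Scaled to listed reads 3024 genes, 8 members and 27 list genes were higher and 7 members lower. With limma-voom on recovered reads 3650 genes, 10 members and 36 list genes were higher and 7 members lower, and scaled to nuclear reads 3 members were higher. The members' median log2 fold change was 0.18 under TPM, 0.039 scaled to listed reads, 0.040 with limma-voom, -0.020 scaled to nuclear reads and -0.016 without HNRNPA1L2 and HNRNPA1P48, an alternative chosen after seeing the data. A scaling moves all genes of a library by the same factor. Leaving out each library gave 1125 to 1937 higher and 987 to 1767 lower genes, 1 to 3 higher and 5 to 12 lower members, 5 to 14 higher and 16 to 34 lower list genes, and a median of -0.10 to -0.028; the cause was not tested.

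Some members that did not pass on deposited FPKM changed direction. Under TPM HNRNPK was at 0.10, HNRNPM 0.077, SRSF3 0.040, HNRNPL 0.225, HNRNPDL 0.18, SRSF11 0.050, HNRNPA0 0.11, SRSF4 0.23 and HNRNPLL 0.18. Scaled to listed reads HNRNPL was at 0.082, HNRNPDL 0.039, SRSF4 0.089 and HNRNPLL 0.038, and with limma-voom HNRNPL was at 0.082, HNRNPDL 0.040, SRSF4 0.089 and HNRNPLL 0.039. Scaled to nuclear reads HNRNPL was at 0.023 and SRSF4 at 0.030, and under quantile normalization HNRNPU was at -0.032. Leaving out single libraries gave -0.028 to 0.025 for HNRNPA3, -0.056 to 0.13 for SRSF2, -0.090 to 0.039 for HNRNPL, -0.020 to 0.034 for HNRNPU and -0.028 to 0.027 for SRSF4. HNRNPA3, HNRNPH3, HNRNPU, HNRNPUL2, SRSF4, SRSF9 and TRA2A passed as higher under TPM and under no other alternative. Pseudocounts of 1 and 0.01 changed the call of no member.

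The replicate numbers did not pair the libraries: the deviations of same-numbered ones correlated at -0.016, -0.033 and 0.034. With the replicate block 1776 genes were higher and 1617 lower, and 1 member was higher and 11 were lower.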

Other observations

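Of 74 further genes named as pseudogenes of HNRNPA1 28 had reads, in all 302 to 309 reads per celastrol library and 334 to 387 per DMSO library, or 0.961 to 1.22% of the reads on HNRNPA1. HNRNPA1P7 averaged 4.31 ± 0.419 FPKM under celastrol and 7.59 ± 1.16 under DMSO (SD, n = 3 each; limma log2 fold change -0.80, adjusted p = 0.00401), and HNRNPA1P10 7.04 ± 1.39 under celastrol and 11.1 ± 1.04 under DMSO (-0.66, adjusted p = 0.0116). HNRNPA1P16 averaged 3.28 ± 0.117 FPKM under celastrol and 3.50 ± 0.677 under DMSO and did not pass (-0.08, adjusted p = 0.708). The pseudogenes of HNRNPC held the largest share of reads relative to a member, 3.60 to 5.34% over the 6 libraries. Among these, HNRNPCP4 averaged 15.6 ± 2.95 FPKM under celastrol and 11.8 ± 1.28 under DMSO (0.38, adjusted p = 0.0904), and HNRNPCP2 14.8 ± 1.35 under celastrol and 19.0 ± 3.94 under DMSO (-0.34, adjusted p = 0.131). These genes were chosen after their values were seen, and the part of shared reads in their values was not tested.

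TGFB1, which overlaps HNRNPUL1 by 215 exonic bases on the other strand, rose to 111 ± 4.72 FPKM under celastrol, against 83.0 ± 8.66 under DMSO (SD, n = 3 each; 0.43, adjusted p = 0.0112). CBX3, which overlaps HNRNPA2B1 by 368 bases, averaged 51.8 ± 0.898 FPKM under celastrol and 43.8 ± 7.77 under DMSO (0.26, adjusted p = 0.151).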
